A study of Mus musculus with 14 samples.

Results

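The effector genes described here are 10 genes switched on by type I interferon: Isg15, Usp18, Rsad2, Cmpk2, Isg20, Rtp4, Xaf1, Ifi44, Mx1 and Mx2. They were chosen by name, as effector genes of the interferon response outside the larger Ifit, Oas and guanylate-binding families. Earlier results of these data were known when they were chosen. Of these 10 genes, 8 had rows in the expression table of 17890 genes, and all 8 passed the filter on low counts. Mx1 and Mx2 matched no row and were not analysed here; RefSeq annotates both as transcribed pseudogenes in the reference strain (chromosome 16, 97447035 to 97462906 and 97536081 to 97560901, build GRCm38).

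The samples were mRNA libraries of bone marrow-derived macrophages, cells grown from marrow progenitors with the growth factor M-CSF, from male C57BL/6J mice aged 8 weeks at the start. The diabetic group had received streptozotocin, a toxin of the insulin-producing beta cell, at 42 to 45 mg/kg daily for 5 days, counted as diabetic at a glucose above 16.9 mmol/L, and was kept hyperglycaemic for 6 weeks. The other group was healthy, and progenitors of both groups were then cultured for 7 days at 5 mmol/L glucose. The table held 4 libraries with names starting in D and 4 with names starting in M, each with 19048195 to 20027967 estimated counts. D is the initial of diabetic, and M was assigned to the healthy mice as the group left over, as no label gives its meaning; all directions are stated for D against M, and they would be the other way round if the letters stood for the other groups. The labels do not say whether each library came from its own mouse, so p-values measure the spread between these libraries, which may be technical. The 3 diabetic-trained and 3 untrained samples of a second phase were not analysed here.

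Type I interferons are cytokines that bind the receptor chains Ifnar1 and Ifnar2 and act through the kinases Jak1 and Tyk2. Signalling leads to a complex of transcription factors, Stat2 and Irf9 among them, that binds a DNA element built of GAAA repeats and turns on interferon-stimulated genes. Their products block viruses at different steps, and macrophages keep many of them at a low level without infection.

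RefSeq promoter windows (GRCm38.p6; 250 bases before to 50 bases after an annotated start) were found for 6 of the 10 genes, 8 windows in all, and were searched on both strands for GAAANNGAAA (reverse complement TTTCNNTTTC), where N is any base. The 250 bases before the start are printed 5′ to 3′ in the gene's direction for the 2 genes with a match, Isg15 and Rsad2, with the matched bases in capitals. The window of Cmpk2, which lies beside Rsad2 and was higher in D as well, is shown for contrast and was chosen after its values were seen.
Isg15 (chr4:156200819-156201068, minus strand): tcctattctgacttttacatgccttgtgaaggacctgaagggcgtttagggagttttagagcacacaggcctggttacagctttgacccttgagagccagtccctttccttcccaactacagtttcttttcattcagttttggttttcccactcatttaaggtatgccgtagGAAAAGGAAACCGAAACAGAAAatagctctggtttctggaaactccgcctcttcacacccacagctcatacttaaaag
Rsad2 (chr12:26456453-26456702, minus strand): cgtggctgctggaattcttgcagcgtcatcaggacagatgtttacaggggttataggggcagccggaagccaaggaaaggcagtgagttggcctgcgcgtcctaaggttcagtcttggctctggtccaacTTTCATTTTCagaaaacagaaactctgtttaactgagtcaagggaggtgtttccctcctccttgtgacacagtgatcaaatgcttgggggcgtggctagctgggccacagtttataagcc
Cmpk2 (chr12:26468965-26469214, plus strand): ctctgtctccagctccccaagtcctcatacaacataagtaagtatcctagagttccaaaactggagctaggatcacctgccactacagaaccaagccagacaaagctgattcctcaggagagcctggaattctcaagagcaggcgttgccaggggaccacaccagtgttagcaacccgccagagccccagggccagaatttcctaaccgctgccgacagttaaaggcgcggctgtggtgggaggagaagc
Isg15 held 3 matches, starting 78, 72 and 66 bases before the start, and each shared a GAAA with the next. Rsad2 held 1 match, starting 120 bases before the start and read on the opposite strand. The windows of Cmpk2, Ifi44, Isg20 and Xaf1 held none. Of all 32851 promoter windows of the same length, 1131 (3.44%) held a match. The shorter pattern GAAANNGAA, added after the first search, matched the windows of Isg15, Rsad2 and Ifi44 and 8.56% of all windows. The pattern TTCNNNGAA, which reads the same on both strands and is that of the gamma-activated site, was found in a window of Isg20 and in 8.30% of all windows. These matches describe letters in a window and not measured binding.

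Marker lists of 14 cell types were read first, because the libraries are bulk RNA. The macrophage markers Adgre1 (59.0 to 112 CPM in the D libraries, 38.3 to 52.9 in the M libraries) and Csf1r (193 to 242 against 149 to 173 CPM) were present, while Mertk and C1qa, markers of mature macrophages, lay between 0.440 and 2.41 CPM in every library. CPM is the count of a gene relative to the library total, here after scaling for composition by TMM. The 12 macrophage markers summed to 7020 to 11500 CPM in D and 4640 to 5440 CPM in M, but most of that sum was Lyz2, a lysozyme gene that neutrophils express as well. The other 11 summed to 533 to 637 CPM in D and 374 to 504 CPM in M, with 7 higher in D. Summed granule and other neutrophil markers were high in both groups, at 43900 to 68400 CPM in D and 38200 to 39900 CPM in M, with 10 of 14 higher in D. Those of mast cells and basophils summed to 1060 to 1430 against 545 to 686 CPM, with 7 of 8 higher, and those of megakaryocytes to 133 to 208 against 299 to 404 CPM, with 6 of 6 lower. The B cell markers summed to 70.8 to 254 CPM against 1200 to 1570 CPM, with 10 of 12 lower in D. Those of plasmacytoid dendritic cells, known as strong producers of type I interferon, summed to 223 to 373 CPM against 766 to 903 CPM, with 7 of 8 tested markers lower and 1 higher. Those of natural killer cells summed to 25.9 to 32.2 against 10.6 to 14.0 CPM, with 4 of 5 tested markers higher. No marker of any list was at 0 in all 8 libraries. The monocyte markers summed to 2090 to 2920 against 1420 to 1840 CPM, with 3 of 8 higher and 1 lower. Of the 8 erythroid markers 0 were called, with sums of 1320 to 6840 against 4510 to 7910 CPM. The plasma cell, T cell, eosinophil and osteoclast lists are not described here. Over all tested genes, 17.4% were higher and 17.3% lower in D. The levels of the lists described, apart from the erythroid one, differed between the groups. Their part in the results below was not tested, and in bulk samples fewer cells of a type and less RNA per cell cannot be told apart.

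At an adjusted p under 0.05 by edgeR's quasi-likelihood test, 4 of the 8 effector genes were higher in D: Rtp4, Usp18, Cmpk2 and Rsad2. The number lower was 0, also with DESeq2 and voom, and no fitted value was below 0. The other 4, Isg15, Isg20, Xaf1 and Ifi44, did not pass the test. Over all 12839 genes tested, 17.4% were higher and 17.3% lower in D by the same test. With a block for replicate number added to that test, 3 effector genes were higher, among 2412 genes higher and 2403 lower. Rsad2 did not pass then (log2 fold change 1.07, adjusted p = 0.0525). No label says whether same-numbered libraries are pairs, but 8 of 8 libraries were closest to the library of their own number in the other group. Pairing is therefore possible, and the call of Rsad2 depends on whether it is modelled. Without TMM factors, on library totals alone, 1524 genes were higher and 3346 lower. In Rtp4, Usp18, Cmpk2 and Rsad2 every D library lay above every M library, which was so for 16.3% of all tested genes. The median log2 fold change of the 8 genes was 0.92, against -0.03 over all tested genes, whose median absolute log2 fold change was 0.23. Over all tested genes 45.9% of the fitted values were above 0. A log2 fold change of at least 1, a doubling, was reached by 4 of the 8 genes and by 2.50% of all tested genes.

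**Figure D1:**
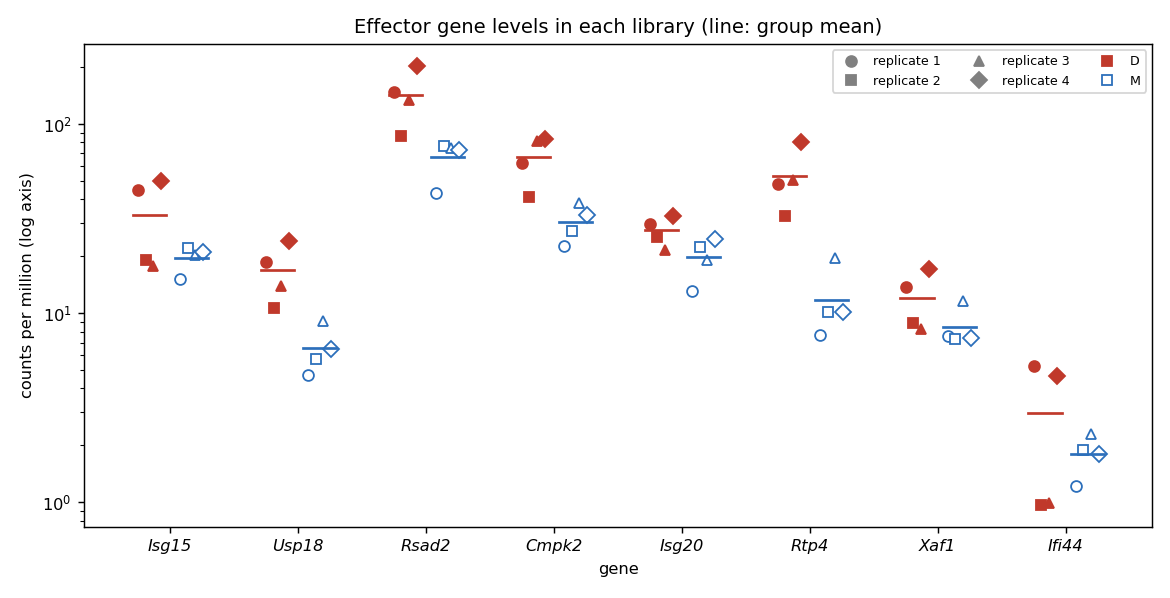
Level of the 8 effector genes in each library, in CPM on a log axis. Filled red symbols are D libraries and open blue symbols M libraries, with one shape per replicate number and a line at the mean of each group. For Usp18, Rsad2, Cmpk2 and Rtp4 all D symbols lie above all M symbols; for Isg15, Isg20, Xaf1 and Ifi44 the groups overlap.

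Rsad2 and Cmpk2 are neighbours on chromosome 12 with related work in the cell. Rsad2 (viperin; NCBI gene 58185, 26442743 to 26456452, build GRCm38) is a radical SAM enzyme that turns CTP into an analogue that ends viral RNA chains. Cmpk2 (gene 22169, 26469117 to 26479837) is a mitochondrial nucleoside monophosphate kinase that acts on the precursors of such nucleotides. The ends of the 2 genes facing each other lie 12664 bases apart. Rsad2 was the most counted of the 8 genes, at 148, 86.4, 134 and 203 CPM in the 4 D libraries, in order of replicate number, and at 43.0, 76.9, 74.8 and 72.7 CPM in the 4 M libraries. The gap between the groups was narrow, since D replicate 2 stood just above M replicate 2, while M replicate 1 lay well below the other M libraries. The means were 143 ± 48.0 CPM and 66.9 ± 16.0 CPM (SD, n = 4 each), a 2.14-fold difference (95% interval 1.38 to 3.30) with a log2 fold change of 1.10 ± 0.27 (SE; adjusted p = 0.0163). Cmpk2 was at 62.0, 41.0, 81.6 and 82.9 CPM in the D libraries and at 22.8, 27.3, 38.4 and 33.2 CPM in the M libraries. Here too D replicate 2 was the lowest D library and stayed above all M libraries. The means of 66.9 ± 19.7 and 30.4 ± 6.81 CPM gave a 2.20-fold difference (95% interval 1.50 to 3.22; log2 fold change 1.14 ± 0.24; adjusted p = 0.00771). Without D replicates 1 and 3, which stood at the ends of the first principal component in an earlier analysis, neither gene passed (Rsad2 1.14, adjusted p = 0.0815; Cmpk2 1.05, adjusted p = 0.0630), with only 2 D libraries left.

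On its other side Rsad2 borders Rnf144a, an E3 ubiquitin ligase gene 27423 bases away, which was higher in D too, at 276 ± 58.4 against 128 ± 22.9 CPM (log2 fold change 1.11 ± 0.17; adjusted p = 0.00105). Its order over the D libraries was another one, with D replicate 3 highest at 350 CPM and D replicate 1 lowest at 214 CPM. The nearest tested protein-coding genes on each side of the effector genes included 14 that are not effector genes themselves. Of these 14, 5 were higher and 3 lower in D, against 17.4% and 17.3% of all tested genes. Their median log2 fold change was 0.05. The biggest differences among these neighbours were decreases. They were -2.63 for Smtnl2, 75429 bases from Xaf1, and -2.20 for St6gal1, a sialyltransferase gene 159868 bases from Rtp4. Apart from Rsad2 and Cmpk2, 1 called effector gene, Rtp4, had nearest tested genes of opposite direction. St6gal1 lay at lower coordinates, and Bcl6, a transcriptional repressor gene (0.79), 350827 bases away at higher coordinates.

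Isg15 and Usp18 belong to one protein-modifying system. Isg15 (gene 100038882, chromosome 4, 156199424 to 156200818) encodes a ubiquitin-like protein that is joined to other proteins, and Usp18 (gene 24110, chromosome 6, 121245906 to 121270917) encodes the protease that removes it and that also holds back signalling at the interferon receptor. Usp18 was at 18.7, 10.6, 14.0 and 24.2 CPM in the 4 D libraries, in order of replicate number, and at 4.74, 5.70, 9.12 and 6.47 CPM in the 4 M libraries. All D libraries were above all M libraries, the closest being D replicate 2 and M replicate 3. The means of 16.9 ± 5.90 and 6.51 ± 1.88 CPM gave a 2.59-fold difference (95% interval 1.70 to 3.95; log2 fold change 1.37 ± 0.27; adjusted p = 0.00465). Isg15 split the D libraries instead. It was counted at 44.7, 19.2, 17.8 and 49.9 CPM in the 4 D libraries and 15.2, 22.1, 20.2 and 21.0 CPM in the 4 M libraries. D replicates 1 and 4 were above all M libraries, and D replicates 2 and 3 lay within the M range. The means were 32.9 ± 16.8 and 19.6 ± 3.05 CPM, and the log2 fold change of 0.75 ± 0.35 did not pass (adjusted p = 0.134; 95% interval of the fold 0.959 to 2.94).

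The enzymes that attach ISG15 were read as a list of 5, all tested. Of these 5, 3 were higher in D, against 17.4% of all tested genes. No fitted value was below 0, and the list had a median log2 fold change of 0.32. Herc6, an ISG15 ligase of the mouse, was at 23.1, 19.8, 25.9 and 31.0 CPM in the D libraries and at 11.2, 13.6, 15.7 and 15.0 CPM in the M libraries, with no overlap (log2 fold change 0.84 ± 0.15; adjusted p = 0.00197). Uba7, the activating enzyme of the pathway, was higher by 0.33 ± 0.08 on the log2 scale (adjusted p = 0.0123), and the ligase gene Arih1 by 0.32 ± 0.09 (adjusted p = 0.0212). With library totals in place of TMM, and with the deposited TPM or FPKM values, Uba7 and Arih1 lost their calls and the list count was 1; Arih1 also lost its call without M replicate 1 (0.26, adjusted p = 0.0556). The conjugating enzyme Ube2l6 (0.17 ± 0.22; adjusted p = 0.593) and the ligase Trim25 (0.29 ± 0.11; adjusted p = 0.0577) did not pass. Trim25 passed without D replicate 1 (0.38, adjusted p = 0.00925) or M replicate 3 (0.36, adjusted p = 0.0350). Ube2l6 had a D order like that of Isg15, with 86.4 and 77.1 CPM in D replicates 1 and 4 and 60.1 and 40.2 CPM in D replicates 2 and 3, against 46.2 to 69.4 CPM in the M libraries.

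Rtp4 (gene 67775, chromosome 16, 23520219 to 23614222), a receptor-transporter family protein known for antiviral activity and for helping certain receptors reach the cell surface, had the largest difference of the 8 genes. It was at 48.4, 32.6, 50.9 and 80.7 CPM in the 4 D libraries, in order of replicate number, and at 7.67, 10.1, 19.5 and 10.1 CPM in the 4 M libraries. The lowest D library was D replicate 2 and the highest M library M replicate 3, and a wide gap lay between them. The means of 53.1 ± 20.1 and 11.8 ± 5.22 CPM gave a 4.49-fold difference (95% interval 2.56 to 7.87; log2 fold change 2.17 ± 0.35; adjusted p = 0.00281). Of its 4 transcripts in the table, a predicted RefSeq transcript took 93.4% of the counts in D and 93.7% in M, and the curated transcript 6.09% and 5.77%. Counting curated transcripts alone left a log2 fold change of 2.23 with an adjusted p of 0.0634. The annotated span of Rtp4 overlaps Masp1, which had too few counts to be tested, and those of Isg15 and Usp18 overlap the non-coding genes Gm46878 and Gm44148, not analysed here; whether the counting used strand is not given in the sources used here, so reads of overlapping stretches cannot be told apart.

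Whether the effector genes differed from each other in their response was read from ratios within each library, which do not depend on the scaling between libraries. Each of the 28 pairs was compared between the groups with a two-sided exact permutation test, which cannot go below p = 0.0286 with 4 libraries against 4. That smallest value was reached by 9 pairs, 7 of them with Rtp4. With Benjamini-Hochberg adjustment over the 28 pairs the lowest value was 0.089, so 0 pairs passed. Pairs at the smallest value could pass only if many more of the 28 reached it. The 7 pairs of a single gene are too few for that, so the test cannot decide whether Rtp4 differed from the others. The ratio of Rtp4 to Isg15 ran from 1.08 to 2.86 in the D libraries and from 0.459 to 0.965 in the M libraries. The ratio of Rtp4 to Usp18, the nearest of the others in fold change, ran from 2.60 to 3.63 in D and from 1.56 to 2.14 in M. The pairs without Rtp4 whose ranges did not overlap were Usp18 over Xaf1, at 1.20 to 1.69 against 0.626 to 0.872, and Cmpk2 over Xaf1, at 4.48 to 9.86 against 3.01 to 4.47.

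The remaining genes overlapped between the groups. Isg20 (gene 57444, chromosome 7, 78913396 to 78920396), a 3′ to 5′ exonuclease that degrades RNA, was at 29.7, 25.4, 21.6 and 32.8 CPM in the 4 D libraries, in order of replicate number, and at 13.1, 22.3, 19.2 and 24.8 CPM in the 4 M libraries. Only D replicate 3 fell within the M range, and the log2 fold change was 0.46 ± 0.19 (adjusted p = 0.0843; 95% interval of the fold 1.03 to 1.85). It passed without M replicate 4 (0.59, adjusted p = 0.0496) and in DESeq2's test (0.48, adjusted p = 0.0377). Xaf1 (gene 327959, chromosome 11, 72301461 to 72313733), a partner of the apoptosis inhibitor XIAP that promotes cell death, was at 13.8, 8.83, 8.27 and 17.1 CPM in D and at 7.57, 7.29, 11.6 and 7.43 CPM in M. D replicates 2 and 3 lay under M replicate 3 and above the other M libraries (log2 fold change 0.51 ± 0.25; adjusted p = 0.140; 95% interval of the fold 0.967 to 2.08). Ifi44 (gene 99899, chromosome 3, 151730922 to 151749910), an interferon-induced protein with reported antiviral activity, was the lowest of the 8 genes, with 18 to 105 counts per library. It was counted at 5.28, 0.970, 0.993 and 4.64 CPM in the 4 D libraries and 1.22, 1.90, 2.30 and 1.81 CPM in the 4 M libraries. D replicates 1 and 4 were above every M library and D replicates 2 and 3 below every M library, and the log2 fold change of 0.72 ± 0.55 did not pass (adjusted p = 0.336; 95% interval of the fold 0.699 to 3.89). The intervals of Isg15 and Ifi44 thus include the 2.59-fold difference of Usp18. Those of Isg20 and Xaf1 end below it but overlap the interval of Usp18 itself (1.70 to 3.95). Such an overlap does not test whether genes measured in the same libraries differ in their response. In the ratios within libraries, Usp18 over Xaf1 did not overlap between the groups (1.20 to 1.69 in D, 0.626 to 0.872 in M). Usp18 over Isg20 did overlap (0.416 to 0.737 in D, 0.255 to 0.474 in M). Neither pair passed the exact permutation test after adjustment (adjusted p = 0.089 and 0.145), which the small number of libraries limits. Under 21 alternative settings (19 for Ifi44), described with the processing, no fitted value of the 8 genes was below 0.

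**Figure D2:**
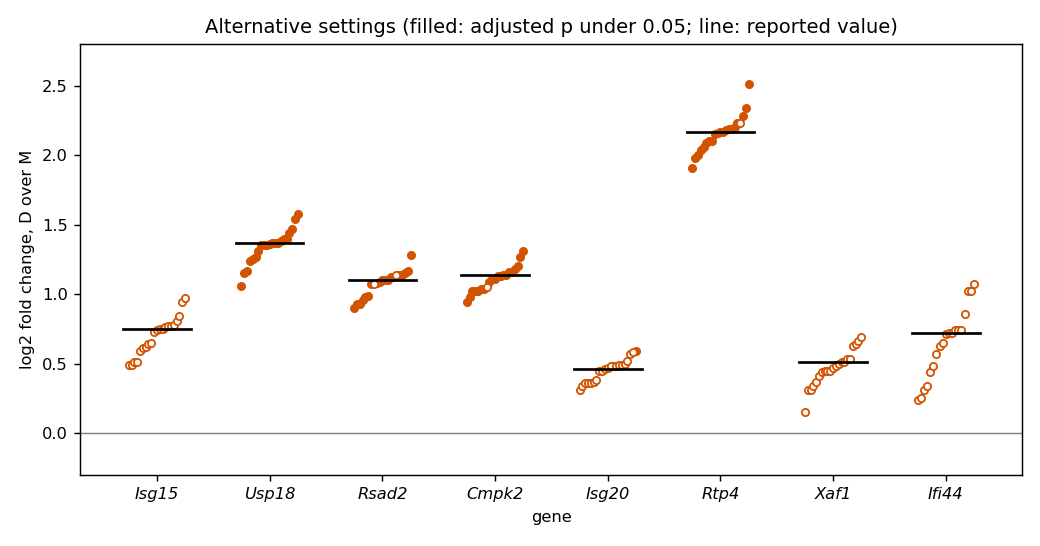
Log2 fold change, D over M, of the 8 effector genes under each alternative setting (points, sorted by value within a gene) and as reported (line). Filled points have an adjusted p under 0.05; all points lie above 0, Usp18 is filled under all 21 settings, and Isg15, Xaf1 and Ifi44 under none.

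The transcripts behind these sums differed in how firmly they were counted. Isg15, Rsad2, Usp18 and Cmpk2 each had counts on 1 curated transcript only. Isg20 counts were spread over 6 transcripts, with 55.1% in D and 54.2% in M on the leading one. Xaf1 counts were spread over 7, with 42.3% and 41.5% on the leading one, a predicted transcript. The 2 transcripts of Ifi44 exchanged places between libraries: the estimate put 104.72 counts on one and 0 on the other in D replicate 1, and 0 and 19 in D replicate 2. Sums per gene were therefore used throughout.

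Levels were compared between genes per transcript length, as the deposited TPM summed per gene. In the D libraries the order by mean was Rtp4 (88.6 ± 32.5 TPM), Isg15 (83.8 ± 43.7), Rsad2 (68.4 ± 22.9), Isg20 (47.6 ± 9.20), Cmpk2 (37.9 ± 10.3), Usp18 (17.5 ± 6.22), Xaf1 (14.6 ± 5.41) and Ifi44 (1.92 ± 1.50). In the M libraries Isg15 led (53.1 ± 9.03 TPM), before Isg20 (37.5 ± 10.3), Rsad2 (34.3 ± 8.68), Rtp4 (21.2 ± 9.60), Cmpk2 (18.5 ± 4.49), Xaf1 (11.0 ± 2.98), Usp18 (7.23 ± 2.21) and Ifi44 (1.24 ± 0.318). Rtp4 thus stood at rank 4 in M and at rank 1 in D. Neighbours in either order overlapped in their ranges over libraries, except Ifi44, whose range lay below that of the gene before it in both groups. Within single libraries, Cmpk2 was above Usp18 and Usp18 above Xaf1 in all 4 D libraries, and Isg15 was above Isg20, Rsad2 above Rtp4, Cmpk2 above Xaf1 and Xaf1 above Usp18 in all 4 M libraries.

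The spread within each group was shared between the genes. Among the D libraries, D replicate 4 was highest for 7 of the 8 genes and D replicate 1 for Ifi44, while D replicate 2 was lowest for 5 and D replicate 3 for 3. D replicates 1 and 4 were above all M libraries for all 8 genes, D replicate 2 for 5 and D replicate 3 for 4. Centred on each gene and averaged over the 8 genes, log2 CPM was 0.78, -0.13, 0.16 and 1.08 in D replicates 1 to 4 and -0.91, -0.46, -0.12 and -0.40 in M replicates 1 to 4. The lowest D library, replicate 2, was thus level with the highest M library, replicate 3. Among the M libraries, M replicate 1 was lowest for 7 genes and M replicate 3 highest for 5. The median log2 fold change of the 8 genes was 0.69 without D replicate 4 and 1.15 without D replicate 2, against 0.92 with all libraries. The summed neutrophil markers had another order, being highest in D replicate 3 (68400 CPM) and not in D replicate 4 (55700 CPM). The 11 macrophage markers other than Lyz2 were highest in D replicate 2 (637 CPM). Other lists, like the effector genes, had D replicates 1 and 4 above D replicates 2 and 3. B cell markers summed to 204, 168, 70.8 and 254 CPM in D replicates 1 to 4, and plasmacytoid dendritic markers to 373, 287, 223 and 354 CPM. The same held for conventional dendritic (87.5, 69.8, 50.6 and 74.8 CPM) and erythroid markers (6840, 3720, 1320 and 5830 CPM). Whether cell composition has a part in the spread of the effector genes was not tested.

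The genes most like the effector genes were the 8 with the smallest root mean square distance from their mean centred profile over the 8 libraries, among 11246 tested genes with a mean log2 CPM of at least 1. They were Ifit1bl2 (distance 0.205), Tgtp2 (0.207), Oasl1 (0.221), Hal (0.222), Myl10 (0.232), Ms4a6b (0.237), Oas1a (0.238) and Oas2 (0.243). For comparison, the distances of the effector genes themselves ran from 0.181 for Rsad2 and 0.223 for Usp18 to 0.599 for Ifi44 and 0.668 for Rtp4. Oasl1, Oas1a and Oas2 belong to the oligoadenylate synthetase family, Ifit1bl2 to the Ifit family and Tgtp2 to the interferon-inducible GTPases; these have close relatives, and reads could be split between them. Hal encodes histidine ammonia-lyase, Myl10 a myosin light chain and Ms4a6b a four-span membrane protein. These 8 genes were selected for their likeness over the same libraries, so their differences between the groups follow from the choice and are given as a description, with no test. The fitted log2 fold changes, D over M, ran from 0.64 for Myl10, 0.72 for Hal and 0.80 for Ifit1bl2 to 1.01 for Ms4a6b, 1.09 for Tgtp2, 1.12 for Oas2 and 1.23 for both Oasl1 and Oas1a.

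**Figure D3:**
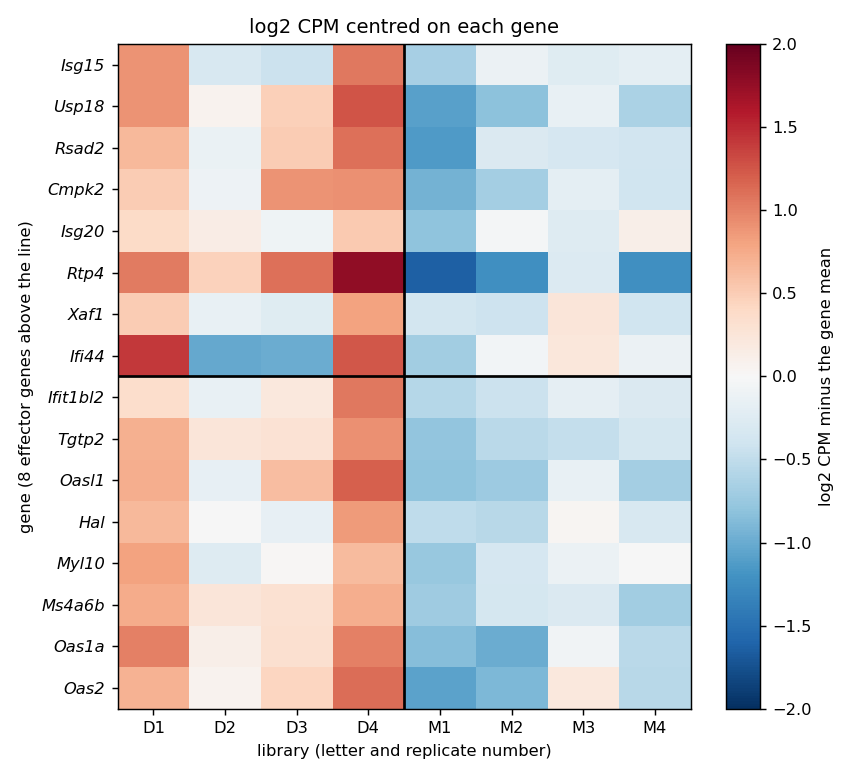
Colour map of log2 CPM in each of the 8 libraries (columns, letter and replicate number), minus the mean of each gene, for the 8 effector genes (upper rows) and the 8 genes most like them (lower rows). Red is above and blue below the mean of a gene; D replicates 1 and 4 are red in every row, and for Isg15, Xaf1 and Ifi44 D replicates 2 and 3 are blue.

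Upstream of the effector genes, the interferon genes themselves were hardly counted. Of 21 interferon genes, those of types I and III and the type II gene Ifng, 9 had rows in the table and 0 passed the filter, and their summed level was 0.0511 to 0.552 CPM in the D libraries and 0.293 to 0.803 CPM in the M libraries. Ifng made up 0 to 0.101 CPM of this sum in the 4 D libraries and 0.293 to 0.452 CPM in the 4 M libraries, which rests on 0 to 2 and 6 to 9 counts per library. The other 12 were not analysed here. Among 9 genes of the receptor and its signalling, all tested, 4 were higher and 1 lower, against 17.4% and 17.3% of all tested genes. Their median log2 fold change was 0.13. The receptor chains Ifnar1 (0.13 ± 0.09; adjusted p = 0.287) and Ifnar2 (0.11 ± 0.06; adjusted p = 0.190) did not pass, nor did the kinase gene Tyk2 (-0.07 ± 0.08; adjusted p = 0.519) or Stat2 (0.08 ± 0.11; adjusted p = 0.594), whose sign turned with other scalings. Without D replicate 1 Ifnar1 did pass (0.23, adjusted p = 0.0369). Jak1, the other receptor kinase, was higher by 0.44 ± 0.11 (adjusted p = 0.0118).

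Irf7, an interferon-induced factor that amplifies the response, had the largest difference of the signalling genes. It was at 50.1, 35.6, 52.5 and 86.8 CPM in the 4 D libraries, in order of replicate number, and at 15.6, 16.0, 29.1 and 19.4 CPM in the 4 M libraries. The groups did not overlap, and D replicate 4 was highest and D replicate 2 lowest of the D libraries, as for Rtp4 (log2 fold change 1.49 ± 0.30; adjusted p = 0.00698). Irf9 was higher by 0.47 ± 0.11 (adjusted p = 0.00942) and Irf1 by 0.35 ± 0.10 (adjusted p = 0.0218), though the call of Irf1 ended when M replicate 1, 2 or 4 was dropped, at adjusted p-values of 0.0576 to 0.0674, and on library totals (0.24, adjusted p = 0.0537). Irf3, the factor that first responds to viral nucleic acid sensors, was lower by a small amount, at 53.0 to 58.3 against 61.1 to 72.0 CPM (log2 fold change -0.26 ± 0.07; adjusted p = 0.0168). Its adjusted p was 0.0566 without D replicate 4 and 0.0531 without M replicate 3, and counting curated transcripts alone turned its sign (0.29, adjusted p = 0.315). With curated transcripts alone Jak1 lost its call too (0.26, adjusted p = 0.116), and 2 of the 9 genes were higher.

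**Figure D4:**
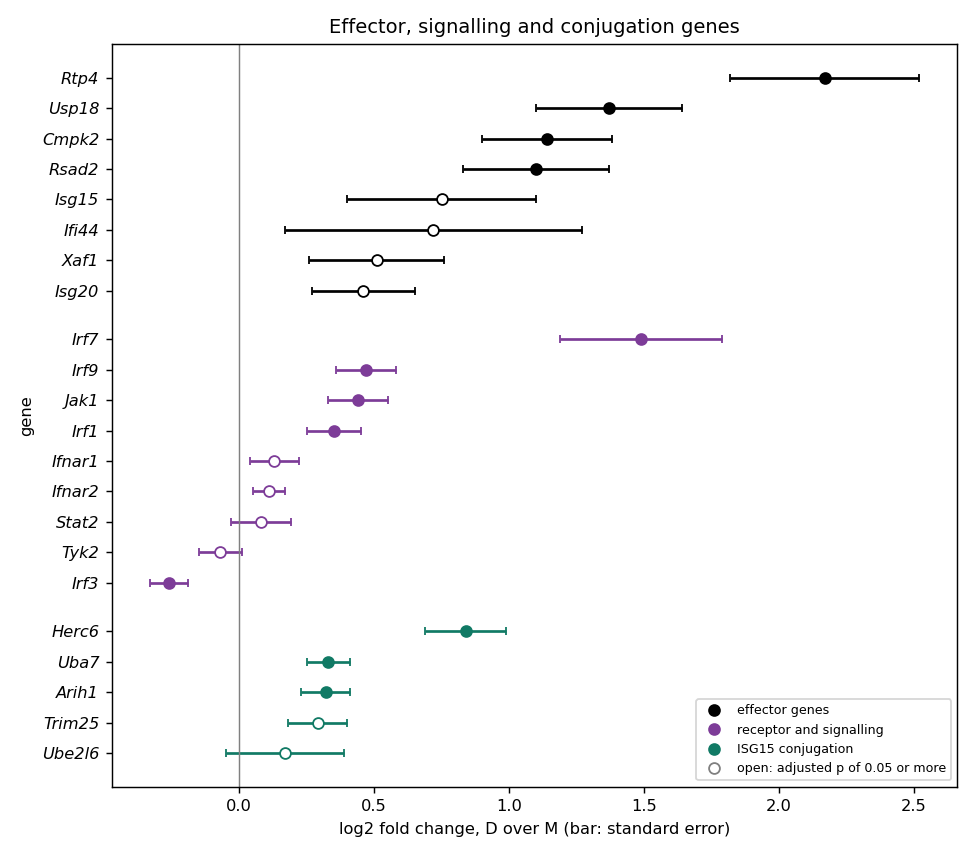
Fitted log2 fold change, D over M, with its standard error, for the 8 effector genes (black), the 9 receptor and signalling genes (purple) and the 5 ISG15 conjugation genes (green). Filled points have an adjusted p under 0.05 and open points do not; Rtp4 lies farthest to the right at 2.17, and Irf3 is the one filled point below 0.

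Genes that hold back interferon signalling were read as a list of 6, all tested. In this list 2 were higher and 1 lower in D, against 17.4% and 17.3% of all tested genes. The median log2 fold change was 0.03. Socs1, an inhibitor of Jak kinases, was lower, at 1.71 to 2.47 CPM in the D libraries and 3.76 to 5.52 CPM in the M libraries (log2 fold change -1.20 ± 0.18; adjusted p = 0.000955). Its relative Socs3 was higher by 1.10 ± 0.30 (adjusted p = 0.0232), a call that ended when D replicate 3, M replicate 1 or M replicate 4 was dropped, at adjusted p-values of 0.0517 to 0.0626; 1 gene of the list then remained higher. The SUMO ligase gene Pias1 was higher by 0.29 ± 0.07 (adjusted p = 0.0113), but not past the threshold on library totals (0.19, adjusted p = 0.0597) or the deposited TPM and FPKM. Usp18, described above, also acts against signalling at the receptor and was higher.

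The interferon gamma list, genes known mainly as targets of type II interferon, had 8 genes, of which 5 were tested. Of these 5, 1 was lower in D, against 17.3% of all tested genes. No fitted value of the list was above 0, and the median was -0.27 on the log2 scale. The gene lower was Ciita, the activator of MHC class II genes, at 6.07 to 14.6 CPM in D and 18.7 to 22.2 CPM in M (log2 fold change -0.81 ± 0.21; adjusted p = 0.0164), a call lost when the leading transcript alone was counted (-0.70, adjusted p = 0.375). Ciita is also expressed by B cells and dendritic cells, whose markers were lower in D (B cell markers as given above; conventional dendritic markers 50.6 to 87.5 against 106 to 115 CPM in sum, with 4 of 7 tested lower), and their part in this difference was not tested. Without D replicate 2 the list held 2 lower genes.

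Interferon-stimulated effector genes outside the 10 formed a list of 48, of which 43 were tested. Of these 43, 28 were higher and 3 lower in D, against 17.4% and 17.3% of all tested genes. The median log2 fold change of the list was 0.51. Some of these genes had been seen to differ in an earlier analysis of the data, so the count is not independent of it. The lowest p-values belonged to Parp12, an antiviral ADP-ribosyltransferase gene, higher by 1.00 ± 0.14 (adjusted p = 0.000651), and to Ifitm3, which blocks virus entry, higher by 0.74 ± 0.11 (adjusted p = 0.000758). They were followed by Ifitm6, higher by 0.65 ± 0.10 (adjusted p = 0.000832), and Tdrd7, a tudor-domain gene, higher by 0.59 ± 0.09 (adjusted p = 0.000860). The 3 lower genes, named after their values were seen, were Ifi203 (-0.77 ± 0.15; adjusted p = 0.00345), Ifi209 (-1.28 ± 0.23; adjusted p = 0.00409) and Mndal (-0.71 ± 0.13; adjusted p = 0.00250). All of them belong to the Ifi200 family of DNA-binding proteins, whose members are close copies between which reads could be split. Of the 7 tested genes of this family in the list, 3 were higher: Ifi204 (1.83 ± 0.30; adjusted p = 0.00280), Ifi207 (0.41 ± 0.12; adjusted p = 0.0247) and Ifi213 (0.81 ± 0.27; adjusted p = 0.0428). Ifi211 did not pass (0.70 ± 0.25; adjusted p = 0.0533), but did without D replicate 2 (adjusted p = 0.0210) or M replicate 3 (adjusted p = 0.0463). The call of Ifi213 ended when D replicate 1 or 4 or M replicate 1, 2 or 4 was dropped (adjusted p-values of 0.0732 to 0.103), and that of Ifi207 without D replicate 4 (0.0559) or M replicate 1 (0.0647). Ifi203 lost its call with curated transcripts alone (-0.74, adjusted p = 0.0796). The number higher was 17 when curated transcripts alone, or the leading transcript of a gene, were counted.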

How the data were processed

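Messenger RNA was captured with oligo(dT), and SOAPnuke 1.5.6 for read filtering and HISTA2 2.1.0 (so spelled) for alignment to mm10 are named, per the labels' design text. The quantifier is not named in them, nor is the annotation release. Per the file headers, the authors deposited estimated counts for 60072 RefSeq transcripts, not normalized. The TPM and FPKM values of the authors take transcript length and library size into account. The 8 deposited normalized-count columns and 8 group means were not used. Sums of these counts over the transcripts of a gene, rounded, entered the test; 17836 of 17890 genes had a RefSeq symbol.

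Groups were compared by the quasi-likelihood test of edgeR 4.0.16 in R 4.3.3 (TMM, robust, group only; filterByExpr with minimum count 10 and minimum total 15; Benjamini-Hochberg over 12839 genes; threshold 0.05), tested on simulated counts. The biological coefficient of variation was 12.4%. TMM factors were 0.913 to 1.01 in D and 1.03 to 1.05 in M. No replicate was a copy of another (chi-square per gene between replicates 6.49 to 66.3). Intervals of folds are 95% intervals from the fit's standard error and t quantiles.

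The effector genes, lists and tests were chosen with earlier results of these data known. Named genes are the effector genes, the tested signalling and conjugation genes, up to 4 called genes of lowest p in each other list, the 8 nearest profiles and neighbouring genes. Alternatives were DESeq2 1.42.0 (size factors, test), library totals, voom and limma-trend (limma 3.58.1) on log2 TPM (pseudocounts 1 and 0.1) or FPKM (pseudocount 1) with a mean of at least 1, no filter, a minimum count of 50, a replicate block, transcript choices and libraries left out. Protein sequences were not used here, and 1 gene of the signalling list is not reported here.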

Additional observations from a re-analysis of the deposited data

Results flagged for a closer look

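In the 16 sets of 4 libraries examined (8 genes in each group), 2 had a library farther from its neighbours than Dixon's 95% limit, where chance gives about 1 in 20. Rsad2 was at 43.0 CPM in M replicate 1, with the other M libraries at 72.7 to 76.9 CPM. Xaf1 was at 11.6 CPM in M replicate 3, with the other M libraries at 7.29 to 7.57 CPM.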

How the results depend on the processing

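No effector gene changed sign under the 21 alternatives (19 for Ifi44), and the number higher ran from 2 to 5, with 0 lower. It was 2 without D replicates 1 and 3, which leaves 2 D libraries, and 4 to 5 with 1 library left out. Leaving out 1 library gave 1710 to 2865 genes higher and 1583 to 2504 lower overall. Library totals alone gave 3346 genes lower; log2 TPM gave 1459 (pseudocount 1) or 1453 (0.1) higher, and log2 FPKM 1356. The most abundant transcript gave 1088 higher and 964 lower, curated transcripts 1293 and 1176. The cause was not tested. Library totals, TPM and FPKM moved the median of all genes from -0.03 to between -0.14 and -0.11. Signs turned for Stat2 (-0.03 with library totals, -0.01 and -0.01 with TPM, -0.02 with FPKM), Ifnar2 (-0.08, most abundant transcript) and Irf3 (0.29, curated transcripts).

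Replicate numbers are shared by the groups, but no label says what they mean. Deviations of same-numbered libraries correlated at 0.0991, 0.126, 0.106 and 0.186, all above the other pairs, which ran from -0.165 to 0.0551. In addition, 8 of 8 libraries were closest to their own number. As 1 value was just under the bound of 0.1, the reported fit has no block for the number. Pairing remains possible by these values, so the fit with a block is given beside it. With a replicate block 3 effector genes were higher (Rsad2 1.07, adjusted p = 0.0525), among 2412 genes higher and 2403 lower. DESeq2's test called Isg20 too (0.48, adjusted p = 0.0377). Ifi44 had the lowest counts of the 8 genes, 18 to 105 per library.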
